A study of Mus musculus with 8 samples.

Results

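Imprinted genes are read mainly from the copy that came from 1 parent. The 43 imprinted genes described here belong to 16 clusters or single loci, and were taken by name from the list of genes known to be imprinted in the mouse. The parental copy named for a gene below is the textbook one. Expression by copy was not measured in the cells used here. Every accessible region that overlapped such a gene, or the 5 kb on either side of it, was counted as belonging to it on the GRCm38 genome. That gave 43 of 49939 annotated genes and 270 of 189914 regions, where a region is the stretch left after overlapping peaks of all samples were merged.

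In most imprinted clusters a stretch of DNA that is methylated on only one parental copy, the imprinting control region, decides which copy is transcribed. In several clusters the active copy makes a long noncoding RNA, such as Kcnq1ot1, Airn, Meg3 or H19, and Kcnq1ot1 and Airn are known to silence neighbouring genes in cis. Ezh2 is the catalytic subunit of Polycomb repressive complex 2, which trimethylates lysine 27 of histone H3, a repressive mark that Kcnq1ot1 and Airn are known to recruit in the placenta.

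Accessibility was measured by ATAC-seq, in which a transposase cuts and tags open chromatin, in retinal ganglion cells (RGCs), the neurons whose axons form the optic nerve. Adult C57BL/6J mice of both sexes, 6 to 10 weeks old, received AAV2 carrying GFP (3 samples), Ezh2 (3 samples) or Ezh2-Y726D (2 samples) in the vitreous; Ezh2-Y726D carries a single amino acid change that removes the methyltransferase activity. All groups had an optic nerve crush 2 weeks after the virus, RGCs were sorted 3 days later as CD90.2-positive retinal cells, and each library came from 50000 cells. All 3 groups kept their own Ezh2 gene, and the comparisons ask how accessibility differed with added active enzyme or added inactive enzyme. Because C57BL/6J mice are inbred, the maternal and paternal copies cannot be told apart, so each value is the sum over both copies. Nothing in the labels says how many animals contributed to a library, so p-values measure the spread between these samples.

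The 8 peak lists held 112939 to 135895 peaks, with read depth unknown. The fold of a peak (the peak's read pileup over the local background, as deposited) is compared between samples only by its rank within its own list, given as a percentile from 0 (weakest peak) to 100 (strongest). All 20 RGC marker genes and all 20 rod genes had a peak within 5 kb in all 8 lists. Peaks at RGC genes numbered 85 to 100 with GFP, 102 to 114 with Ezh2 and 103 and 112 with Ezh2-Y726D. At rod genes they numbered 87 to 89, 81 to 84, and 74 and 83. Ezh2 did not overlap GFP in either set of genes. Numbers of peaks at marker genes are not scaled to list length. The lists held 112939 to 133674 peaks with GFP and 126271 to 135895 with Ezh2, and the part of this was not tested. Peaks at 20 genes of microglia and macrophages numbered 68 to 82 with GFP, 84 to 94 with Ezh2 and 34 to 35 with Ezh2-Y726D. A peak was found at 19 to 20, 19 to 20 and 16 of the genes. Itgam, Ctss, Tmem119 and Siglech were at 0 in both Ezh2-Y726D lists. Tmem119 was also at 0 in GFP replicate 2, and Siglech in GFP replicate 1 and Ezh2 replicate 2. Peaks at 20 T cell genes numbered 94 to 116, 127 to 131 and 62 to 64, at 20, 20 and 17 to 18 of the genes, with Cd8a and Cd8b1 at 0 in both Ezh2-Y726D lists. Ezh2 and GFP did not overlap in the microglial and T cell lists either. At an unadjusted limma p under 0.05, 5 of 18 microglial and 7 of 20 T cell genes tested had more peaks with Ezh2 than with GFP. None had fewer, and the shares over all genes were 7.74% with more and 2.78% with fewer. After adjustment 1 microglial and 0 T cell genes had more peaks with Ezh2 than with GFP, against 1.63% of all genes. With Ezh2-Y726D, 7 microglial and 6 T cell genes had fewer peaks than with GFP, against 3.74% of all genes. Between Ezh2 and Ezh2-Y726D, 11 of 18 microglial and 11 of 20 T cell genes had more peaks with Ezh2, against 6.91%. None went the other way in these comparisons after adjustment. The numbers of peaks in these 2 lists moved with all 3 comparisons below, and their part in the results was not tested.

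Imprinted genes held 177, 170 and 195 peaks with GFP, 189, 200 and 203 with Ezh2, and 187 and 202 with Ezh2-Y726D. The means were 181 ± 12.9 (SD, n = 3), 197 ± 7.37 (SD, n = 3) and 194.5 ± 10.6 (SD, n = 2). As a share of each list they were 0.146% to 0.157%, and the ranges of the 3 groups overlapped. When every list was shortened to the 112939 peaks with the lowest p-values, the difference between Ezh2 and GFP fell from 16.7 to 1.33 peaks. The median percentile of these peaks was 59.3, 59.3 and 59.9 with GFP, 60.1, 55.5 and 58.9 with Ezh2, and 56.1 and 54.6 with Ezh2-Y726D. Of the 43 genes, 42 had a peak in every list. The exception was Calcr, the calcitonin receptor of the Peg10-Sgce cluster, whose single peak was in replicate 2 of Ezh2-Y726D.

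**Figure D1:**
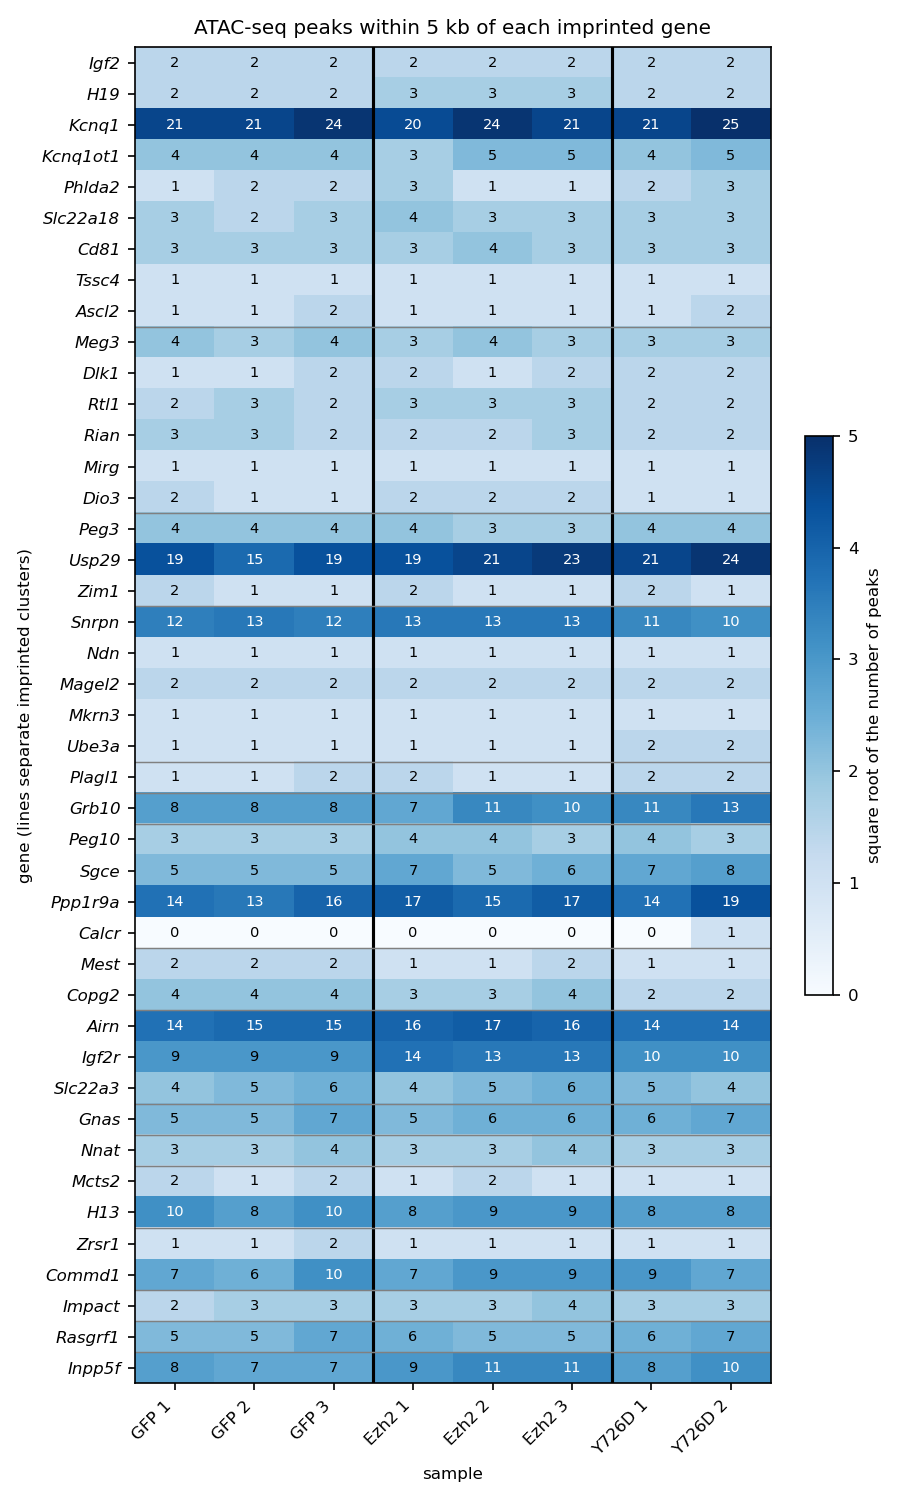
Number of ATAC-seq peaks within 5 kb of each imprinted gene (rows, grouped by cluster) in each of the 8 samples (columns); the colour is the square root of the number. Long genes such as Kcnq1 (20 to 25 peaks), Usp29 (15 to 24) and Ppp1r9a (13 to 19) hold the most peaks, and Igf2r goes from 9 in all GFP samples to 13 or 14 with Ezh2.

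Long genes carried the most peaks: Kcnq1, a potassium channel, had 20 to 25, Usp29, a deubiquitinase, 15 to 24, and Ppp1r9a, the actin-binding protein neurabin, 13 to 19. Per 10 kb of gene and flanks the order was different. Nnat, which encodes the small membrane protein neuronatin, had 2.61 peaks per 10 kb on average, the H19 noncoding RNA gene 1.88 and H13, a signal peptide peptidase, 1.78, whereas Ube3a, a ubiquitin ligase, had 0.136 and Calcr 0.0140. Of the 270 regions, 121 were found in every list and 44 in a single list.

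The transcription starts of imprinted genes were covered by peaks more often than those of all genes, given here as a description. RefSeq promoter entries matched 37 of the 43 genes, and listed 53 starts for them. A peak covered the start in all 8 lists at 36 starts (67.9%), against 43.7% of 32851 starts of all genes, and in no list at 14 (26.4%), against 47.1%. Of 26 starts of genes expressed from the paternal copy 20 were covered in every list (76.9%), and of 21 starts of maternally expressed genes 12 (57.1%). Starts of 1 gene or of neighbours can lie in the same region, so starts are not independent units. The 20 include several of Snrpn, 2 of Mest in the same region, and those of Peg3 and Usp29, which share a region. Starts covered in no list included those of Ascl2, a transcription factor of the trophoblast, Dlk1, a Notch pathway ligand, Slc22a18, Slc22a3, Rian, Mirg and Calcr. Igf2, the fetal growth factor, was covered at 1 of 4 listed starts, and Mest, a hydrolase of the mesoderm, at the 2 downstream starts but not at the upstream one.

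The strength of the starts ranged over nearly the whole list. The start of Zim1, a zinc finger gene that is maternally expressed, stood at percentile 99.2 or above in the 8 lists. The starts of Mcts2, a retrogene within an intron of H13, Inpp5f, a phosphoinositide phosphatase, and Copg2, a coatomer subunit, stood at 98.1 to 99.6, 97.4 to 98.8 and 96.7 to 99.4. The starts of the noncoding RNAs Kcnq1ot1 and Airn stood at 93.6 to 95.9 and 83.9 to 90.4, and that of Plagl1, a zinc finger transcription factor, at 85.2 to 95.5. At the other end, the start shared by Peg3, a zinc finger protein, and Usp29 stood at 4.7 to 10.6 and the start of Nnat at 4.0 to 27.5. The widely separated Zim1 and Peg3 starts lie in the same cluster.

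Promoters of 6 of these genes are printed 5′ to 3′ on the strand of the gene, from 250 bases before to 50 bases after the listed start (RefSeq, GRCm38.p6), to set the strong starts of Zim1 and Plagl1 beside the weaker starts of Peg3, Nnat and Mest, and beside the Snrpn start that differed between groups below. Capitals mark TGCCGC or its reverse complement GCGGCA, the core that ZFP57 binds when it is methylated.
Snrpn, the start at 60140225, chr7:60140176-60140475, minus strand: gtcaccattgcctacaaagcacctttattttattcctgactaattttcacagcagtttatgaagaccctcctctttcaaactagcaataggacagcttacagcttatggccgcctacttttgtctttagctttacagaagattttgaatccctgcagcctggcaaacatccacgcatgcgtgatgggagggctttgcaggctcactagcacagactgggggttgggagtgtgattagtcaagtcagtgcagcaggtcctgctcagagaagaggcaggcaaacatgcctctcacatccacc
Zim1, chr7:6696383-6696682, minus strand: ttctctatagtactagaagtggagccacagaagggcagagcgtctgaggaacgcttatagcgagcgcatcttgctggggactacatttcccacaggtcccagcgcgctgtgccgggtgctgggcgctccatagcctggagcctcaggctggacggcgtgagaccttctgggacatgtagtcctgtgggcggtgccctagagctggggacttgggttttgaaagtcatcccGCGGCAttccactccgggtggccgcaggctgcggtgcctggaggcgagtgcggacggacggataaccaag
Peg3, chr7:6730370-6730669, minus strand: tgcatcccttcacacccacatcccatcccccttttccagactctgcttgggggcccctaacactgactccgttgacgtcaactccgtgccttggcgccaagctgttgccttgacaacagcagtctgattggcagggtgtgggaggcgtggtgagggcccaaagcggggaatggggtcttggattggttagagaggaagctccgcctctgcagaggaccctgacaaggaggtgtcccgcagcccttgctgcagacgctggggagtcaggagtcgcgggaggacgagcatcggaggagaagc
Nnat, chr2:157559828-157560127, plus strand: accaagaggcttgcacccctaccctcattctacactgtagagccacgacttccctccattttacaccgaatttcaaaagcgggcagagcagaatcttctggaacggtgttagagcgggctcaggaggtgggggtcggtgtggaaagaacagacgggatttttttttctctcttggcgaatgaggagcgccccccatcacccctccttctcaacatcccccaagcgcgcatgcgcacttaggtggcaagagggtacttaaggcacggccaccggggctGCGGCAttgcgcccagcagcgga
Plagl1, chr10:13090582-13090881, plus strand: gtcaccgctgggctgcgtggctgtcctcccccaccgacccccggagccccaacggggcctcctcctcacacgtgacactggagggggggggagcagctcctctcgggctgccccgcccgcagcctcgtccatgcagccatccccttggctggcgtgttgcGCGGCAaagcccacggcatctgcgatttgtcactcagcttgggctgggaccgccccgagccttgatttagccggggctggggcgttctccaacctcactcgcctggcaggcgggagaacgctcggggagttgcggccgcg
Mest, chr6:30737800-30738099, plus strand: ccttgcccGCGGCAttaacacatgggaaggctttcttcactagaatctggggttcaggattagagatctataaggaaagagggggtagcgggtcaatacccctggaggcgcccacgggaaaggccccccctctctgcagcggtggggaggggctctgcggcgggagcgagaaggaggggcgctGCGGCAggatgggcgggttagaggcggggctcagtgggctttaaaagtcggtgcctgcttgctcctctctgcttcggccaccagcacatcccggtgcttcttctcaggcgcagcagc

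Only the Snrpn start was chosen by the rule for called regions, and the other 5 were chosen after their values were seen. The Mest window held the core 2 times, Zim1, Nnat and Plagl1 held it once each, and the Peg3 and printed Snrpn windows had no match. TGCCGC, searched on both strands, was in 13 of the 53 windows (24.5%), against 11.6% of all promoters of the same length. The 13 include 2 overlapping windows of Mest. The windows were also richer in G and C (median 58.3% against 52.7%), and the part of this in the share was not tested. A long CTCF motif, searched in the same way, was in none of the 53, against 0.0365% of all. The median number of CG dinucleotides was 16 per window, against 7, and it was 3 in the printed Snrpn window and 26 in that of Plagl1.

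The strongest region of each cluster, some at starts and some away from them, stood at middle to high percentiles. A region inside Ppp1r9a (chr6:5109905-5110942) stood at 98.2 to 99.9 and a region inside Snrpn (chr7:60243786-60244761), a splicing protein gene, at 98.6 to 99.9. A region inside Impact (chr18:12955290-12956420), a translation regulator, stood at 98.6 to 99.5. In the Dlk1-Dio3 cluster the strongest region was at the end of Mirg (chr12:109749422-109750581), at 90.6 to 95.9, in the Igf2r-Airn cluster the start of Igf2r (91.0 to 95.2), and in Zrsr1-Commd1 the upstream start of Commd1 (88.7 to 94.7). The strongest region of Gnas, the stimulatory G protein locus (chr2:174294969-174295933), varied more, from 75.5 to 96.3. The strongest regions of Nnat (chr2:157565879-157567166, 70.8 to 78.2), Rasgrf1, a Ras exchange factor (its start, 52.4 to 69.3), and Grb10, an adaptor of the insulin receptor (chr11:11973231-11973900, 73.7 to 90.4), had the lowest mean percentiles of the 16.

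Differences in rank between groups were tested with limma on normal scores, which turn the ranks of each list into units in which that list has an SD of 1, over 69493 regions with a peak in all 8 lists. Imprinted genes were near or below the background in each comparison. Between Ezh2 and GFP 4 of 121 imprinted regions passed the test (3.31%), against 4.44% of all regions, and all 4 were lower with Ezh2 (background for lower 2.84%, for higher 1.59%). Between Ezh2-Y726D and GFP 2 of 121 passed (1.65%), against 8.21%, with 1 higher (background 3.55%) and 1 lower (4.65%). Between Ezh2 and Ezh2-Y726D 15 of 121 passed (12.4%), against 14.0%, with 9 higher in Ezh2 (background 7.0%) and 6 lower (6.96%). The median difference of the 121 regions was 0.01, -0.05 and 0.06 normal-score units in the 3 comparisons, beside 0.01, -0.01 and 0.02 over all regions. The comparisons share samples, so the same region can be called more than once, and the 21 calls fell on 18 regions. At an unadjusted p under 0.05, limma gave 13 higher and 13 lower of the 121 regions for Ezh2 against GFP (9.93% and 10.1% of all regions), 7 and 8 for Ezh2-Y726D against GFP (12% and 12.4%) and 17 and 18 for Ezh2 against Ezh2-Y726D (14.9% and 14.5%). The counts depended on single libraries. For Ezh2 against GFP the count went from 4 to 1 without GFP replicate 3 or Ezh2 replicate 3, and to 2 without GFP replicate 2, Ezh2 replicate 1 or Ezh2-Y726D replicate 2. For Ezh2-Y726D against GFP it went from 2 to 0 without GFP replicate 2 or Ezh2-Y726D replicate 1, to 1 without GFP replicate 1, Ezh2 replicate 1 or Ezh2-Y726D replicate 2, and to 4 without Ezh2 replicate 3. For Ezh2 against Ezh2-Y726D it went from 15 to 3 without Ezh2-Y726D replicate 1, to 5 without Ezh2-Y726D replicate 2, and to 7 without Ezh2 replicate 1 or 3. With 1 Ezh2-Y726D library left, that library is assumed to vary like the other groups.

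**Figure D2:**
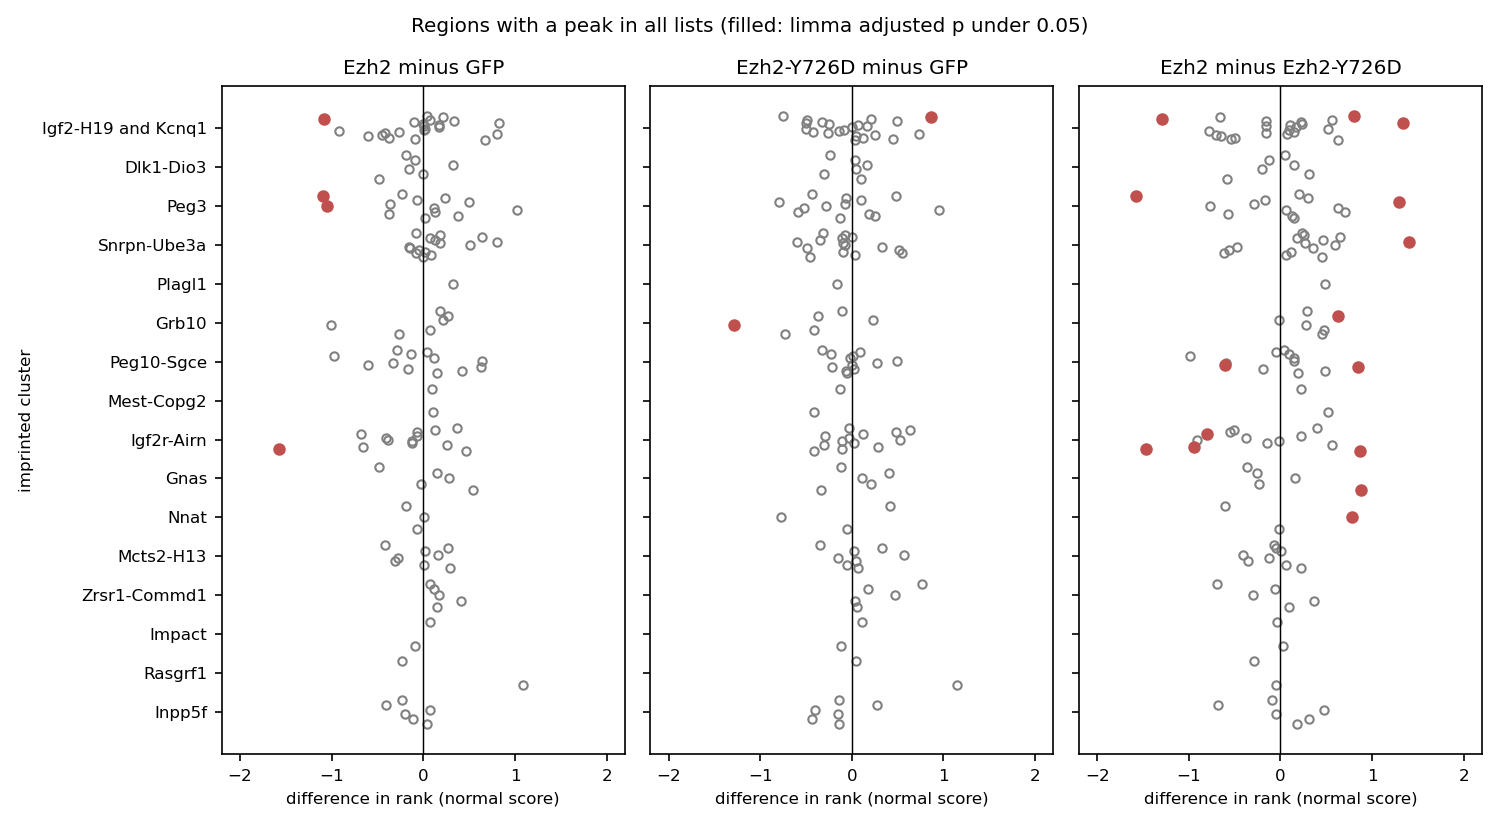
Difference in normal score (x axis) of each of the 121 imprinted regions with a peak in all 8 lists, by cluster (y axis), in the 3 comparisons; filled points have a limma adjusted p under 0.05. The 4 filled points of Ezh2 minus GFP lie below 0, and those of Ezh2 minus Ezh2-Y726D lie on both sides, 9 above and 6 below.

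**Figure D3:**
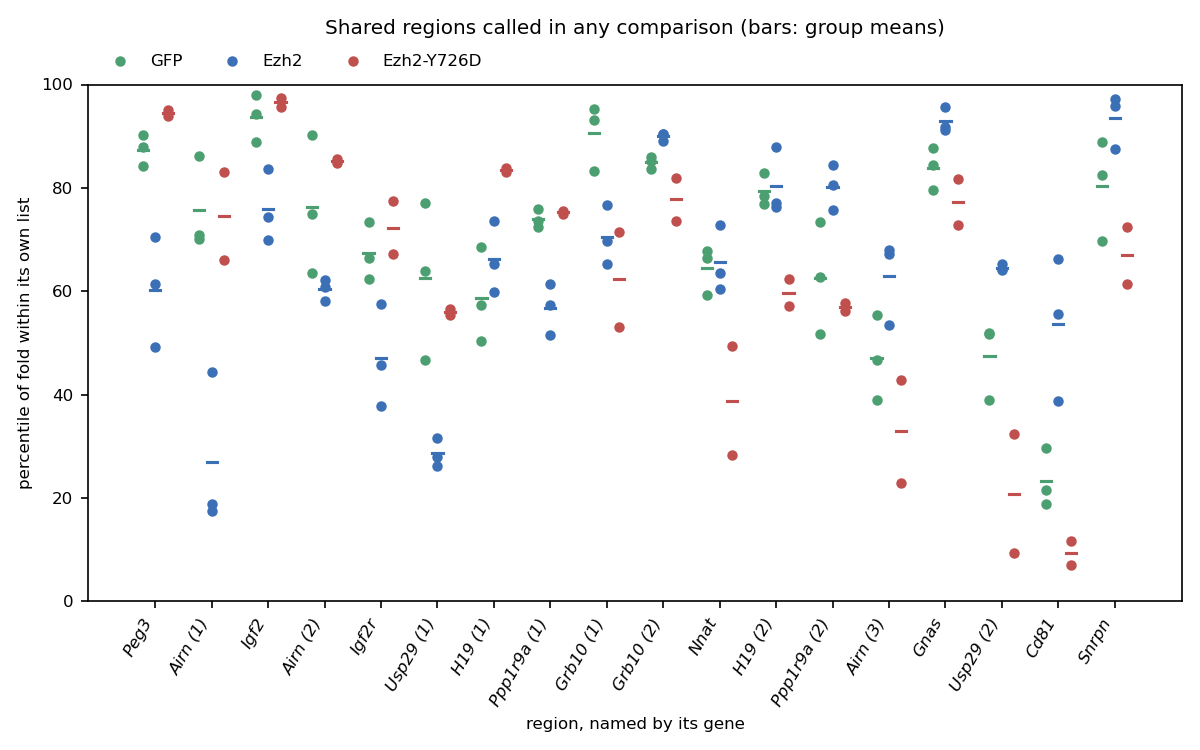
Percentile of fold within its own list (y axis) in each sample for the 18 called regions, ordered by the difference between Ezh2 and Ezh2-Y726D; points are samples, short bars group means, and numbers in brackets separate regions of the same gene. In the Peg3 region the Ezh2 samples (49.2 to 70.4) lie below the GFP (84.2 to 90.2) and Ezh2-Y726D samples (93.8 and 95.1), and in the Snrpn region they (87.6 to 97.3) lie above Ezh2-Y726D (61.4 and 72.4) and overlap GFP (69.7 to 89.0).

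The most stable difference was inside Peg3 (chr7:6708053-6709137), 21.8 kb from its start. Its percentile was 87.9, 84.2 and 90.2 with GFP, 49.2, 70.4 and 61.3 with Ezh2, and 95.1 and 93.8 with Ezh2-Y726D. The Ezh2 samples lay below all others, and the other groups did not overlap either. The difference was -1.10 ± 0.19 (SE) normal-score units between Ezh2 and GFP (adjusted p = 0.0161) and -1.58 ± 0.21 between Ezh2 and Ezh2-Y726D (adjusted p = 0.00202), and 0.48 ± 0.21 between Ezh2-Y726D and GFP did not pass (adjusted p = 0.197). The call against Ezh2-Y726D held in all 15 alternatives (adjusted p 0.00161 to 0.0226), and was the only one of the 21 that did. The call against GFP was lost without GFP replicate 3 (-1.05, adjusted p = 0.0543).

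In the neighbouring Usp29 the differences went in both directions. A region inside it (chr7:6770159-6771078) stood at percentile 38.9, 51.7 and 51.9 with GFP, 64.1, 65.2 and 64.4 with Ezh2, and 9.2 and 32.4 with Ezh2-Y726D. The groups were separate, with Ezh2 highest, and the difference between Ezh2 and Ezh2-Y726D was 1.29 ± 0.23 (adjusted p = 0.00607); without Ezh2-Y726D replicate 1 it was 0.89 (adjusted p = 0.0692). A second region (chr7:6825944-6826685) stood at 77.1, 46.7 and 63.9 with GFP, 31.7, 28.0 and 26.2 with Ezh2, and 55.5 and 56.6 with Ezh2-Y726D. The Ezh2 samples were the lowest, -1.05 ± 0.23 below GFP (adjusted p = 0.0348), and this call was lost in 10 of 14 alternatives, among them leaving out any library other than GFP replicate 2 (adjusted p 0.0530 to 0.102).

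At the Igf2r-Airn cluster 4 regions were called. In the textbook account the paternally expressed Airn RNA runs antisense to the maternally expressed receptor gene Igf2r. Whether either gene is expressed from 1 copy in these cells was not measured. A region inside Airn (chr17:12845794-12846940), 105 kb from its start, stood at 70.1, 70.8 and 86.2 with GFP, 44.4, 18.8 and 17.5 with Ezh2, and 83.1 and 65.9 with Ezh2-Y726D. The Ezh2 samples lay below the rest, and the differences were -1.57 ± 0.29 from GFP (adjusted p = 0.0189) and -1.47 ± 0.32 from Ezh2-Y726D (adjusted p = 0.0150). The first was lost without GFP replicate 2 (-1.65, adjusted p = 0.0521), GFP replicate 3 (-1.39, 0.0647) or Ezh2 replicate 3 (-1.40, 0.0562), and the second without Ezh2-Y726D replicate 1 (-1.14, 0.124).

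The other 3 regions of that cluster were called only between Ezh2 and Ezh2-Y726D. A second Airn region (chr17:12832068-12832918) stood at 58.0 to 62.2 with Ezh2, 63.5 to 90.2 with GFP and 84.9 and 85.7 with Ezh2-Y726D (-0.94 ± 0.27, adjusted p = 0.0413). A region inside Igf2r (chr17:12725001-12726238) stood at 37.8 to 57.5 with Ezh2, 62.4 to 73.5 with GFP and 67.2 and 77.4 with Ezh2-Y726D (-0.80 ± 0.22, adjusted p = 0.0412). Another Airn region (chr17:12857981-12858638) was higher with Ezh2, at 53.5 to 67.9, against 38.9 to 55.4 with GFP and 22.9 and 42.8 with Ezh2-Y726D (0.87 ± 0.22, adjusted p = 0.0261). The second Airn call was lost without GFP replicate 1, any Ezh2 library or either Ezh2-Y726D library (adjusted p 0.0548 to 0.160). The Igf2r call was lost without any GFP library, Ezh2 replicate 1 or 3, or either Ezh2-Y726D library (0.0560 to 0.225), and the call of the Airn region higher with Ezh2 without Ezh2 replicate 2 or 3 or Ezh2-Y726D replicate 1 (0.0609 to 0.235).

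Between H19 and Igf2, on the distal part of chromosome 7, 3 regions were called. A region past the 3′ end of Igf2 (chr7:142646426-142647429) stood at 89.0, 94.4 and 98.0 with GFP, 69.8, 83.7 and 74.4 with Ezh2, and 97.4 and 95.6 with Ezh2-Y726D. The Ezh2 samples lay below all others, -1.08 ± 0.24 from GFP (adjusted p = 0.0359) and -1.29 ± 0.27 from Ezh2-Y726D (adjusted p = 0.0128). The first call was lost in 9 of 15 alternatives, among them each library except GFP replicate 1 and Ezh2 replicate 2 (adjusted p 0.0521 to 0.103), and the second without Ezh2-Y726D replicate 1 (-1.14, adjusted p = 0.101).

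The 2 regions just upstream of H19 lie on the side where the imprinting control region of this cluster, bound by CTCF on the maternal copy, is known to be. The one nearer to H19 (chr7:142580057-142581079) stood at 77.0 to 82.8 with GFP, 76.4 to 87.9 with Ezh2, and 62.3 and 57.2 with Ezh2-Y726D, and differed between Ezh2 and Ezh2-Y726D by 0.80 ± 0.21 (adjusted p = 0.0337). The farther one (chr7:142581605-142582187) went the other way, at 68.5, 50.3 and 57.3 with GFP, 65.3, 73.5 and 59.8 with Ezh2, and 83.9 and 83.0 with Ezh2-Y726D. It was the single region that was higher in Ezh2-Y726D than in GFP (0.87 ± 0.23, adjusted p = 0.0453). Both calls were lost without either Ezh2-Y726D library (adjusted p 0.115 and 0.189 for the first, 0.197 and 0.157 for the second), and also without Ezh2 replicate 1 (0.0509 and 0.0629), without Ezh2 replicate 3 for the first (0.0846) and without GFP replicate 2 or 3 for the second (0.124 and 0.105).

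The largest positive difference was at the Snrpn start printed above, in the region chr7:60139568-60140566. Its percentile was 89.0, 69.7 and 82.4 with GFP, 95.9, 87.6 and 97.3 with Ezh2, and 61.4 and 72.4 with Ezh2-Y726D. GFP overlapped both other groups, which did not overlap each other, and the difference between Ezh2 and Ezh2-Y726D was 1.40 ± 0.30 (adjusted p = 0.0140); it was 1.21 without Ezh2-Y726D replicate 1 (adjusted p = 0.112) and 1.55 without replicate 2 (0.0529). The other 3 listed Snrpn starts were not called. Inside Cd81, a tetraspanin (chr7:143059136-143059808), the percentile was 29.7, 18.8 and 21.5 with GFP, 66.3, 38.8 and 55.6 with Ezh2, and 11.6 and 7.1 with Ezh2-Y726D. The 3 groups did not overlap, Ezh2 and Ezh2-Y726D differed by 1.34 ± 0.26 (adjusted p = 0.00973), and the call was lost without Ezh2-Y726D replicate 2 (1.15, 0.0853).

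At Gnas a region (chr2:174343792-174344686) stood at 79.5 to 87.6 with GFP, 91.2 to 95.7 with Ezh2 and 72.9 and 81.7 with Ezh2-Y726D, a difference of 0.88 ± 0.21 between Ezh2 and Ezh2-Y726D (adjusted p = 0.0236). It was lost without Ezh2 replicate 1 (0.0678), Ezh2-Y726D replicate 1 (0.174) or Ezh2-Y726D replicate 2 (0.0577). Inside Grb10 (chr11:11982704-11983677) the percentile was 93.1, 95.3 and 83.2 with GFP, 76.6, 65.2 and 69.8 with Ezh2, and 53.1 and 71.5 with Ezh2-Y726D. This was the only region lower in Ezh2-Y726D than in GFP (-1.29 ± 0.29, adjusted p = 0.0272), and Ezh2 against GFP did not pass (-1.01 ± 0.26, adjusted p = 0.0607). It was lost without GFP replicate 1 or 2 (0.0716 and 0.0732) and without either Ezh2-Y726D library (0.198 and 0.0621). The remaining 4 calls between Ezh2 and Ezh2-Y726D, of 2 regions in Ppp1r9a and 1 each in Nnat and Grb10, were between -0.61 and 0.85, with adjusted p of 0.0386 to 0.0489, and each was lost without any single Ezh2 or Ezh2-Y726D library.

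A second reading asked for a peak in every sample of 1 group and in none of another. Imprinted genes were again near or below the share of all regions. Ezh2 against GFP gave 7 gained (2.59%, background 2.72%) and 6 lost (2.22%, background 1.68%) of 270 regions. Ezh2-Y726D against GFP gave 11 gained (4.07%, background 4.77%) and 11 lost (4.07%, background 4.72%). Ezh2 against Ezh2-Y726D gave 20 present only with Ezh2 (7.41%, background 8.96%) and 12 only with Ezh2-Y726D (4.44%, background 6.14%). The rule carries no p, since 3 samples against 3 cannot reach an exact permutation p below 0.1. Leaving out a library makes the rule easier to meet, and the counts went from 13 to 20 without Ezh2 replicate 1, and from 22 to 43 and from 32 to 52 without Ezh2-Y726D replicate 1.

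**Figure D4:**
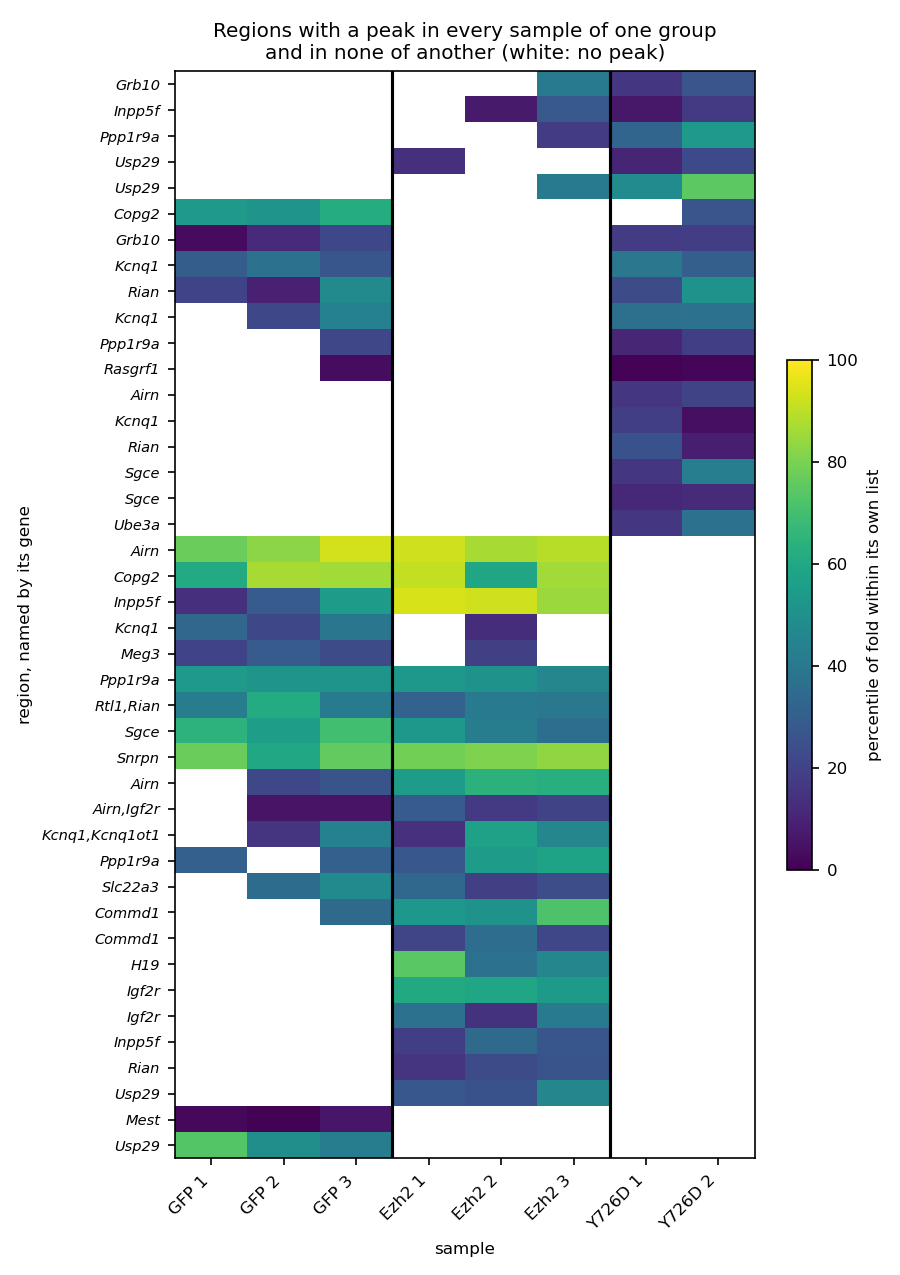
Regions of imprinted genes with a peak in every sample of 1 group and in none of another (rows) in the 8 samples (columns); colour is the percentile of fold within its own list and white means no peak. The regions of Airn, Copg2, Snrpn and Inpp5f that are absent from Ezh2-Y726D hold the strongest peaks.

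The strongest of these regions were absent from both Ezh2-Y726D lists. Inside Airn (chr17:12782896-12783823) the percentile was 77.1, 82.6 and 93.3 with GFP and 92.8, 86.7 and 89.2 with Ezh2. Inside Copg2 (chr6:30855886-30856542) it was 61.2, 87.0 and 86.2 with GFP and 90.7, 59.0 and 86.1 with Ezh2. Inside Snrpn (chr7:60076106-60076898) it was 77.1, 59.9 and 75.9 with GFP and 78.5, 80.5 and 83.3 with Ezh2. GFP and Ezh2 overlapped in these 3 regions. In the fourth, inside Inpp5f (chr7:128632965-128633666), they did not: the percentile was 13.8, 28.7 and 55.4 with GFP and 93.8, 93.0 and 84.8 with Ezh2, with a fold of 3.30 to 5.07 and 7.63 to 10.5. The microglial and T cell marker peaks were also fewer in Ezh2-Y726D, as given above, and their part here was not tested.

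Other regions were seen with only 1 of the 3 viruses. Only Ezh2 had a peak in 2 regions inside Igf2r (chr17:12691458-12692340, percentiles 60.9, 59.0 and 54.5; chr17:12715094-12715418, 37.7, 14.8 and 41.5), in a region past the end of H19 (chr7:142571878-142572248, 74.5, 37.2 and 46.3) and in a region each of Usp29 (chr7:6817844-6818167, 27.3, 25.2 and 46.3) and Inpp5f (chr7:128626791-128627529, 18.7, 34.7 and 26.9). Only GFP had a peak in another Usp29 region (chr7:6939817-6940316, 73.2, 49.5 and 41.9). Only Ezh2-Y726D had a peak in a Ube3a region (chr7:59257933-59258442, 15.7 and 37.8) and in an Sgce region (chr6:4679917-4680294, 15.7 and 42.8); Sgce encodes a sarcoglycan. Most of these peaks were of middle or low rank.

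A few regions were lost with Ezh2 but kept with Ezh2-Y726D. Inside Kcnq1 (chr7:143152324-143152775) the percentile was 29.7, 37.6 and 26.8 with GFP and 39.5 and 30.1 with Ezh2-Y726D, with no peak in the 3 Ezh2 lists. The same held for a region of Rian (chr12:109620227-109620618, 20.0, 9.3 and 48.0 with GFP, 22.9 and 51.4 with Ezh2-Y726D) and of Grb10 (chr11:11968871-11969376, 3.0, 11.8 and 21.6, then 17.8 and 18.2). In a region of Copg2 (chr6:30847568-30847893), at 53.6, 51.7 and 61.8 with GFP, only Ezh2-Y726D replicate 2 kept a peak (26.5). Another Kcnq1 region (chr7:143329339-143329676) had a peak in GFP replicates 2 and 3 (21.7 and 43.9) and both Ezh2-Y726D lists (37.0 and 37.8) and in no Ezh2 list. Gained with Ezh2-Y726D against GFP were also regions of Usp29 (chr7:6840904-6841257, 48.3 and 74.6), Ppp1r9a (chr6:4983698-4984139, 32.4 and 53.7) and Grb10 (chr11:11955699-11956130, 15.7 and 26.5), each with a peak in Ezh2 replicate 3 too.

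The number of peaks per gene was tested with limma on its square root, over 30455 genes with a mean of at least 1 peak per list, of which 42 were imprinted genes. Between Ezh2 and GFP 2 had more peaks with Ezh2 and none fewer (background 1.63% higher and 0.847% lower). Between Ezh2-Y726D and GFP 1 had more and 1 fewer (background 1.37% and 3.74%), and between Ezh2 and Ezh2-Y726D 5 had more with Ezh2 and 1 fewer (background 6.91% and 1.86%). At an unadjusted p under 0.05, limma gave 4 of the 42 with more and 0 with fewer peaks for Ezh2 against GFP (7.74% and 2.78% of all genes), 5 and 3 for Ezh2-Y726D against GFP (5.73% and 9.06%) and 7 and 1 for Ezh2 against Ezh2-Y726D (14.8% and 5.86%). The median difference over the 42 genes was 0 in each comparison, as it was over all genes. The count for Ezh2 against GFP went to 4 without Ezh2 replicate 3, that for Ezh2-Y726D against GFP to 4 without Ezh2 replicate 1 and to 1 without any GFP or Ezh2-Y726D library, and that for Ezh2 against Ezh2-Y726D to 3 without Ezh2 replicate 2 or Ezh2-Y726D replicate 2.

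Igf2r had 9, 9 and 9 peaks with GFP, 14, 13 and 13 with Ezh2, and 10 and 10 with Ezh2-Y726D. Ezh2 was above both other groups, by 0.65 ± 0.04 (SE, square-root scale, limma adjusted p = 0.000446) and 0.49 ± 0.05 (adjusted p = 0.00186). GFP and Ezh2-Y726D had no spread, so each SE and p rests on the Ezh2 samples and on other genes. Both calls held without any single library, but not with lists of equal length (adjusted p = 0.145 and 0.0934), with only peaks of −log10 q of at least 5 (0.146 and 0.275) or with numbers scaled to the mean list length (0.0646 and 0.0593). Airn, which overlaps it, had 14, 15 and 15, then 16, 17 and 16, then 14 and 14, and differed between Ezh2 and Ezh2-Y726D by 0.30 ± 0.06 (adjusted p = 0.0389); the call was lost without any single library other than GFP replicate 1 (0.0598 to 0.159), and with lists of equal length (0.385).

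H19 had 2 peaks in all GFP and Ezh2-Y726D samples and 3 in all Ezh2 samples, the added one being the region past its end described above, and Ube3a had 1 peak in all GFP and Ezh2 samples and 2 in both Ezh2-Y726D samples. Both were called, but with no spread within any group the variance in the test came from other genes, so no p is given; 74.2%, 48.7% and 36.6% of all genes called in the 3 comparisons were of this kind. The Ube3a calls were lost with lists of equal length, and the H19 call against GFP with scaled numbers (adjusted p = 0.0871). Copg2 had 4, 4 and 4 peaks with GFP, 3, 3 and 4 with Ezh2, and 2 and 2 with Ezh2-Y726D. It was lower in Ezh2-Y726D than in GFP (-0.59 ± 0.09, adjusted p = 0.0191) and than in Ezh2 (0.41 ± 0.09 for Ezh2 minus Ezh2-Y726D, adjusted p = 0.0472). Neither group of the first comparison had any spread, so its SE and p rest on the Ezh2 samples and on other genes. The first was lost without any GFP or Ezh2-Y726D library (0.0582 to 0.0913), and the second without any library other than Ezh2 replicate 3 (0.0651 to 0.185). Snrpn had 12, 13 and 12, then 13, 13 and 13, then 11 and 10 peaks, and differed between Ezh2 and Ezh2-Y726D by 0.37 ± 0.06 (adjusted p = 0.0244); it was lost without any 1 Ezh2 library (0.0713 to 0.0750) or Ezh2-Y726D replicate 2 (0.0917), and with numbers scaled to the mean list length (0.250).

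**Figure D5:**
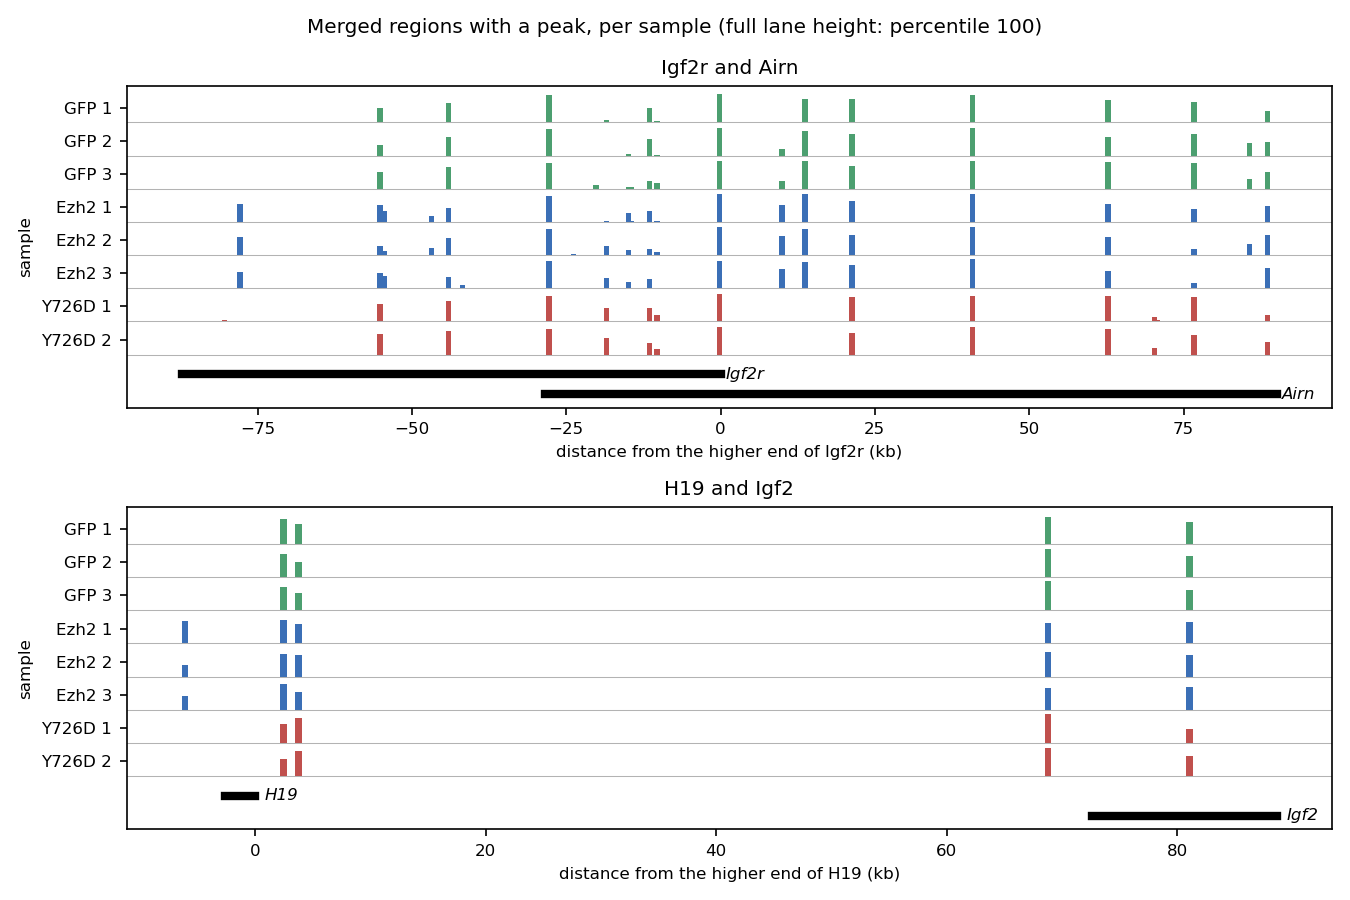
Merged regions with a peak in each sample (lanes) at Igf2r and Airn and at H19 and Igf2, against the distance in kb from the higher end of Igf2r and of H19, which is the start of each; bar height is the percentile of fold within its own list, bars have a fixed width and black lines are the genes. Additional Igf2r regions appear in the 3 Ezh2 lanes, and the added H19 region lies to the left of the gene.

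Genes of both parental origins are given side by side, with no test. The 22 genes expressed from the paternal copy held 90, 87 and 97 peaks with GFP, 98, 102 and 106 with Ezh2, and 94 and 101 with Ezh2-Y726D, and the 19 maternally expressed genes held 89, 84 and 99, then 94, 98 and 98, then 89 and 96. The paternal numbers with Ezh2 were above those with GFP in every sample and the maternal ones overlapped, but as a share of each list the paternal ones overlapped too (0.0726% to 0.0778% with GFP and 0.0776% to 0.0800% with Ezh2). The 4 regions lower with Ezh2 than with GFP (Peg3, Usp29, Airn and the Igf2 flank) were all of paternally expressed genes, which held 61 of the 121 regions. Peg3 and Usp29 are neighbours in 1 cluster. The calls were lost in 1 of 15 (Peg3), 10 of 14 (Usp29), 3 of 13 (Airn) and 9 of 15 (Igf2) alternatives. No pattern by parental origin is read from them. By cluster, Igf2r-Airn went from 20, 22 and 23 peaks with GFP to 25, 27 and 27 with Ezh2 and 22 and 20 with Ezh2-Y726D. Inpp5f went from 8, 7 and 7 to 9, 11 and 11 and then 8 and 10, and Mest-Copg2 from 6, 6 and 6 to 4, 4 and 5 and then 3 and 3. These clusters were picked after their values were seen, and in the others Ezh2 and GFP overlapped or met. In the limma test of peaks per gene, Ezh2 against GFP did not pass for Inpp5f (adjusted p = 0.194), Mest (0.376) or Copg2 (0.376). The Dlk1-Dio3 cluster, which carries the Notch ligand Dlk1, the thyroid hormone deiodinase Dio3 and the noncoding RNAs Meg3, Rian and Mirg, had 11 to 13 peaks in every sample and no region called by rank.

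Among 30 other imprinted genes, 29 were in the annotation and 26 were tested by number of peaks. None was called by limma against GFP for either virus. At an unadjusted p under 0.05 there were 2 higher and 1 lower with Ezh2 (7.74% and 2.78% of all genes). With Ezh2-Y726D there were 1 higher and 4 lower (5.73% and 9.06% of all genes). Between Ezh2 and Ezh2-Y726D 2 of 26 had more peaks with Ezh2, near the 6.91% of all genes that did: Tspan32, a tetraspanin, with 7, 5 and 8 with GFP, 7, 7 and 6 with Ezh2 and 3 and 3 with Ezh2-Y726D (adjusted p = 0.0479), and Ampd3, an AMP deaminase, with 10, 11 and 10, then 11, 12 and 11, then 8 and 9 (adjusted p = 0.0311). Zim3 had no peak in any list. Of 10 factors that keep or read imprints 9 were tested, and Smchd1, a chromosomal protein of gene silencing, was the only one called. It had 2, 2 and 3 peaks with GFP, 5, 4 and 4 with Ezh2 and 2 and 2 with Ezh2-Y726D. The limma adjusted p was 0.0341 between Ezh2 and Ezh2-Y726D and 0.0956 between Ezh2 and GFP. In the first of these comparisons 6.91% of all genes had more peaks with Ezh2, so 1 of 9 is not read as a result about these factors. Zfp42, a pluripotency factor, had no peak in any list.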

How the data were processed

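ATAC-seq was analysed in 8 samples of sorted mouse RGCs (3 GFP, 3 Ezh2 and 2 Ezh2-Y726D), grouped by their titles. The authors deposited 1 MACS2 narrowPeak list per sample, so peaks were called per sample on GRCm38; the submitters' processing notes name cutadapt, Bowtie2, SAMtools, Picard, MACS2 and deepTools, with versions not given in the sources used here. Tags in the names of the peaks point to a filter on mapping quality (10) and to duplicate removal. The deposited columns hold the fold over local background (a ratio), the −log10 of the p-value and q-value, and a score and summit that were not used. No counts or read totals are in the lists, so depth is unknown and fold was compared only as ranks. A stronger or deeper library can still yield more peaks, so list length can move the number of peaks.

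Overlapping peaks (1 bp or more) were combined over all lists into regions, each of which took the highest peak of a sample as its value there. Regions and genes were joined by RefSeq coordinates (GRCm38.p6) with a window of 5 kb, without exons, so "inside" means within the gene's ends. Ranks by fold were turned into normal scores over regions with a peak in all 8 lists and fitted with limma 3.58.1 (R 4.3.3), all 8 samples in 1 fit without covariates. The square root of the number of peaks per gene was fitted with limma with a variance trend, for genes with a mean of at least 1 peak. P-values were adjusted by Benjamini-Hochberg over all regions or genes, with a threshold of 0.05. Gained and lost regions had a peak in every sample of 1 group and in none of the other. The interval operations and both fits were tested on simulated data.

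The imprinted genes, the other lists and the tests were chosen with earlier results of these data known. Regions were named by a rule: for each comparison and direction the 5 with the largest difference or the highest mean percentile, each gene called by number of peaks, the strongest region of each cluster and each gene with no peak; other names were chosen after their values were seen. Promoter entries were not found for H19, Kcnq1, Rtl1, Peg10, Sgce and Impact. Alternatives were leaving out each library, lists of equal length, a −log10 q of at least 5, ranks by −log10 p, regions in at least 5 lists, only the groups compared, windows of 0 and 1 kb, a peak covering at least 0.5 of the region, log2 numbers of peaks, numbers scaled to list length, no filter on genes, and a replicate block.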

Additional observations from a re-analysis of the deposited data

How the results depend on the processing

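The imprinted regions called by rank kept their direction under every alternative run, and of 21 calls 1 held throughout, 5 were lost in 1 alternative and 15 in 2 or more; most losses came from leaving out 1 library. Read depth is unknown, which limits every value here. The cause of the changes below was not tested.

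Leaving out 1 library each, the count of regions called by rank ranged from 1 to 5 (main value 4) for Ezh2 against GFP, from 0 to 4 (2) with Ezh2-Y726D in its place and from 3 to 13 (15) for Ezh2 against Ezh2-Y726D. The regions gained or lost ranged from 14 to 20 (13), 28 to 43 (22) and 33 to 52 (32), and the genes called by number of peaks from 2 to 4 (2), 1 to 4 (2) and 3 to 6 (6). The count by rank of Ezh2 against GFP was 2 with regions in at least 5 lists and 2 with only the groups compared in the fit. That of Ezh2-Y726D against GFP was 6 when ranked by −log10 p, and 1 with the gene body only and 1 with a window of 1 kb. With a −log10 q of at least 5, 6 regions were gained or lost for Ezh2 against GFP. Genes called by number of peaks for Ezh2 against GFP were 1 with a −log10 q of at least 5 and 0 with numbers scaled to the mean list length, and for Ezh2 against Ezh2-Y726D 2 with lists of equal length, 2 with a −log10 q of at least 5 and 3 with scaled numbers.

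With lists of equal length the difference in peaks at imprinted genes was 1.33 (main value 16.7) when Ezh2 was set against GFP, and 2.17 (13.8) when Ezh2-Y726D was. The difference in median percentile was -2.35 with lists of equal length, -2.28 with a −log10 q of at least 5 and -1.38 when ranked by −log10 p (main value -4.17) for Ezh2-Y726D against GFP, and 1.03 with a window of 1 kb and -1.08 when ranked by −log10 p (2.81) for Ezh2 against Ezh2-Y726D.

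The groups share replicate numbers in their titles, but these numbers showed no clear pairing. Deviations from the group means of same-numbered samples correlated at -0.0151 to 0.0478, and of others at -0.0482 to 0.0461. With the replicate block, 5, 3 and 9 regions were called by rank (main values 4, 2 and 15) and 2, 1 and 3 genes by number of peaks (2, 2 and 6). With the block by the number in the peak names, an alternative chosen after seeing the data because the names of the Ezh2-Y726D peaks carry 2 and 3, they were 5, 1 and 11 regions and 2, 1 and 3 genes. By the numbers in the peak names the deviations correlated at 0.0018 to 0.0478 for same-numbered samples and at -0.0482 to 0.0303 for others.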
